A study of Mus musculus with 9 samples.

Results

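The microRNAs miR-192, miR-194 and miR-215 were followed in small extracellular vesicles (smEVs) released by mouse kidney medullary (KM) cells. The members were the 5 entries of the count table that carry these names, mmu-miR-192, mmu-miR-194, mmu-miR-194-1, mmu-miR-194-2 and mmu-miR-215 (the prefix for mouse is left out from here on), out of 1164 entries in all. They were taken by name and not by a threshold on their values, but earlier results of these data were known when they were chosen. Vesicle pellets came from KM cells kept without serum for 24 h, with 3 preparations from each of 3 immortalised lines, and small RNA was sequenced from each pellet. The Bbs4-/- line came from a knockout mouse lacking Bbs4, a subunit of the BBSome that carries cargo in the cilium. The Bbs6-/- line came from a mouse lacking Bbs6, part of the chaperonin complex that builds the BBSome, and the WT line was the control. Each genotype is 1 cell line, so genotype and line cannot be told apart, and the p-values measure the spread between preparations of a line. The question set by this design is which miRNAs the vesicles of the mutant lines carry in other amounts than those of WT cells.

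A miRNA is cut from a hairpin whose 2 arms, 5p and 3p, can each give a mature strand of about the same length, and bases 2 to 8 of the mature strand, the seed, guide it to its targets. The mouse genome holds 2 copies of a miR-194 hairpin, each beside a hairpin of the miR-192/215 family and thought to be cut from 1 primary transcript with it. Both families are best known from epithelia of the kidney, gut and liver, where hepatocyte nuclear factors drive them, and they are also known as p53-responsive miRNAs. miR-192 and miR-215 target the E-cadherin repressors Zeb1 and Zeb2, and miR-192 has been studied in renal fibrosis.

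The mature sequences are shown because the names of the entries turn on them. They are those of RefSeq for GRCm38.p6, written 5′ to 3′ with the seed in capitals, and all 4 hairpins were found there by symbol. The pair that shares a seed is miR-192-5p, at chr19:6264857-6264877, and miR-215-5p, at chr1:185313610-185313630, both on the plus strand.
mmu-miR-192-5p: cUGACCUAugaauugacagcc
mmu-miR-215-5p: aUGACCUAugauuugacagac
These differ at 3 of 21 bases, C1A, A12U and C20A (the base of miR-192-5p first, positions counted from 1 at the 5′ end), none of them in the seed. Reads too short or too altered to cover these bases cannot be told apart, so the split of counts between these names is uncertain to that extent. No other of the 1679 mature mouse names in RefSeq had the seed UGACCUA.

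The 5p strand of miR-194 is the same from both copies, at chr1:185313325-185313346 and chr19:6264658-6264679, so a read of it cannot be given to a locus. The 3p strands of the copies differ, and in RefSeq they alone carry the locus number.
mmu-miR-194-5p: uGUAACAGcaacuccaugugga
mmu-miR-194-1-3p: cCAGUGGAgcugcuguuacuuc
mmu-miR-194-2-3p: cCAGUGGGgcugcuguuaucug
The 3p strand of the chromosome 1 copy lies at chr1:185313360-185313381 and that of the chromosome 19 copy at chr19:6264694-6264715, both on the plus strand. They differ at 4 of 22 bases, A8G, C19U, U20C and C22G (the base of miR-194-1-3p first), of which A8G falls in the seed. The seed of miR-194-2-3p was shared by miR-6926-5p and miR-7055-5p, and those of miR-194-5p and miR-194-1-3p by no other name. The table gives no arm. Of its 62 entries that end in a locus number, 56 match exactly 1 mature name in RefSeq, none matches 2, and 6 match none. Read by name, then, the entries miR-194-1 and miR-194-2 stand for the 3p strands of the chromosome 1 and chromosome 19 copies. The entries miR-192, miR-194 and miR-215 name neither arm, and for these only the larger of several counts was kept by the authors, so they are given here without an arm.

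The hairpin of miR-194-2 is printed to show where the strand with a locus number is cut from, with the 3p strand in capitals. It covers chr19:6264643-6264728 on the plus strand.
Mir194-2 hairpin: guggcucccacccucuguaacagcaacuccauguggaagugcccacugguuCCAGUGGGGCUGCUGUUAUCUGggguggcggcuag
On the same strand, 115 bases lie between it and the Mir192 hairpin at chr19:6264844-6264932. In the GENCODE vM21 annotation of GRCm38 this pair lies between genes. The nearest are Atg2a, which ends 2509 bases from Mir192 on the same strand, and the long non-coding RNA Gm14963, at 3863 bases. On chromosome 1 the Mir194-1 hairpin, chr1:185313319-185313385, and the Mir215 hairpin, chr1:185313581-185313692, are 195 bases apart. They lie on the plus strand in an intron of Iars2, a mitochondrial isoleucyl-tRNA synthetase gene on the minus strand, and inside the antisense gene 2010103J01Rik, an exon of which covers Mir215 but not Mir194-1.

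Library totals ran from 64118 to 457163 counts, and the 3 WT libraries were the shallowest. Levels are given as CPM, counts per 1000000 counts of the library after edgeR's TMM scaling (factors 0.824 to 1.28). A count of 0 was taken to allow up to 3 counts, which is 6.98 CPM where depth was greatest and 36.5 CPM in WT library 1, the shallowest. Counts stand for reads after removal of PCR duplicates by molecular identifiers, and intervals cover counting error only. Libraries of a line differed by more than counting error in each of the 9 pairs (chi-square over its degrees of freedom, 12.4 to 110). Libraries are named by the column numbers of the table, which run over 1, 2, 3 in Bbs4-/-, 2, 3, 4 in Bbs6-/- and 1, 3, 4 in WT. The 5 epithelial markers (miR-200a, miR-200b, miR-200c, miR-141 and miR-429) summed to 16968 to 18926 CPM in Bbs4-/-, 16551 to 21410 CPM in Bbs6-/- and 9993 to 13305 CPM in WT, where miR-141 was at 0. Loss of the Bbs4 or Bbs6 transcript was not checked, since a table of miRNAs does not hold it. More vesicles carrying a miRNA and more copies in each vesicle cannot be told apart in such pellets.

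All 5 entries together were a small part of the vesicle miRNA. They summed to 531 counts over the 9 libraries, and to between 0.00624% of the counts in WT library 1 and 0.0317% in Bbs4-/- library 3. By mean CPM over the 9 libraries, miR-194 was the 139th and miR-192 the 147th of the 469 entries with a count, followed by miR-194-2 as the 201st and miR-215 as the 269th. miR-194-1 had no count in any library. Its 3 libraries pooled allow up to 3.70 CPM in Bbs4-/-, 3.64 CPM in Bbs6-/- and 8.59 CPM in WT.

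miR-192, the member of its family on chromosome 19, was found in all 9 libraries. Its level was 50.6, 80.6 and 107.1 CPM in the Bbs4-/- libraries 1, 2 and 3 (8, 18 and 46 counts). It was 76.8, 174 and 71.6 CPM in the Bbs6-/- libraries 2, 3 and 4 (14, 51 and 25 counts). In the WT libraries 1, 3 and 4 it was 48.6, 160 and 19.4 CPM (4, 18 and 3 counts). The 3 lines overlapped, and WT held both the lowest library of all and the second highest. Group means were 79.4 ± 28.3 CPM in Bbs4-/-, 107.6 ± 57.9 CPM in Bbs6-/- and 76.1 ± 74.4 CPM in WT (SD, n = 3 each). On the log2 scale the fitted difference in level from WT was 0.01 (SE 0.66, 95% interval -1.40 to 1.41) in Bbs4-/- and 0.62 (SE 0.75, -1.08 to 2.32) in Bbs6-/-, with adjusted p of 0.9998 and 0.681 in edgeR's quasi-likelihood test. Neither comparison passed. Both values rest on WT library 3, without which they were 1.25 (SE 0.77) and 1.70 (SE 0.87), also uncalled, so a log2 change of 2 cannot be left out.

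miR-194, whose 5p strand both clusters share, was the most abundant member in 6 of the 9 libraries. It was at 120, 125 and 142.02 CPM in Bbs4-/- (19, 28 and 61 counts) and at 225, 143.5 and 125.9 CPM in Bbs6-/- (41, 42 and 44 counts). In WT it had no count in library 1 and was at 89.1 and 103.4 CPM in libraries 3 and 4 (10 and 16 counts). Every mutant library thus lay above every WT library, although 0 counts in WT library 1 allow up to 36.5 CPM there. Group means were 129 ± 11.4 CPM in Bbs4-/-, 165 ± 52.8 CPM in Bbs6-/- and 64.2 ± 56.0 CPM in WT (SD, n = 3 each). The log2 difference from WT was 0.80 (SE 0.69, 95% interval -0.67 to 2.27, adjusted p = 0.483, edgeR) in Bbs4-/- and 1.31 (SE 0.78, -0.45 to 3.07, adjusted p = 0.372, edgeR) in Bbs6-/-, and neither passed. With counting error alone, the pooled rate was 1.79-fold that of WT in Bbs4-/- (95% interval 1.16 to 2.86) and 2.07-fold in Bbs6-/- (1.35 to 3.29). These intervals leave out the spread between libraries, which the test includes. Libraries that do not overlap were common in these comparisons: all 3 Bbs4-/- libraries lay above all 3 WT libraries for 20.8% of the entries tested, and all 3 Bbs6-/- libraries for 17.4%.

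miR-215, the chromosome 1 member of the miR-192 family, was near the limit of counting. Its counts were 4, 0 and 3 with Bbs4-/-, 4, 4 and 0 with Bbs6-/-, and 0, 1 and 0 with WT. Mean levels were 10.8 ± 13.1, 11.9 ± 11.1 and 2.97 ± 5.14 CPM (SD, n = 3 each), all below the 27.5 CPM that 3 counts stood for on average in a WT library. The log2 differences from WT were 1.47 (SE 2.00) and 1.79 (SE 2.03), with adjusted p of 0.701 and 0.671 in edgeR's test. Without WT library 3, which held the only WT count, they were 4.14 and 4.32, again uncalled. A difference in miR-215 was not detectable at this depth.

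miR-194-2, by name the 3p strand of the chromosome 19 copy, was the member that differed. It was at 69.5, 76.1 and 81.5 CPM in the Bbs4-/- libraries (11, 17 and 35 counts), a mean of 75.7 ± 5.98 CPM (SD, n = 3). In Bbs6-/- it had 0, 1 and 3 counts in libraries 2, 3 and 4, which is 0, 3.42 and 8.59 CPM, and in WT it had none in any of the 3 libraries. By their values, the Bbs4-/- libraries lay above the other 6. All 3 lay above all 3 WT libraries for 20.8% of the entries tested, and above all 3 Bbs6-/- libraries for 14.2%. Counting intervals overlapped: that of Bbs4-/- library 1 began at 34.7 CPM and that of WT library 1 ended at 44.8 CPM. The coefficient of variation among the Bbs4-/- libraries was 7.90%, beside 8.85% for miR-194 and 35.6% for miR-192. At these counts it does not separate spread between libraries from counting error.

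**Figure D1:**
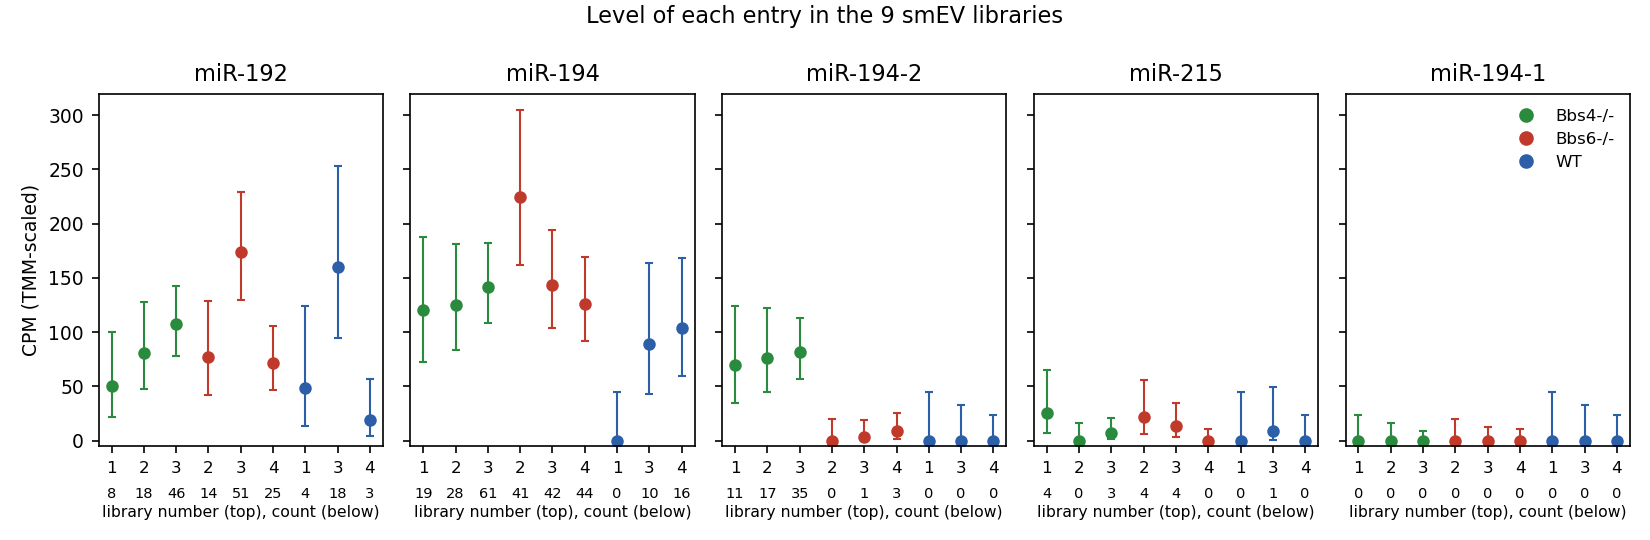
Level of each entry (vertical axis, TMM-scaled CPM) in the 9 libraries, coloured by line, with the library number and the count printed under each point and bars for the 95% counting interval. The 3 Bbs4-/- libraries lie at 69.5 to 81.5 CPM for miR-194-2 and the points of the other 6 at 8.59 CPM or below. The bar of WT library 1, at 0 counts, reaches 44.8 CPM. The lines overlap for miR-192, and miR-194-1 has no count.

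miR-194-2 rose in Bbs4-/- against WT (adjusted p = 0.00702, edgeR). Because WT had no count, the fold is given as a bound: the Bbs4-/- mean was at least 2.75-fold higher than the level that 3 counts per WT library would give. At the Bbs4-/- rate, 27.1 counts would have been found in the 3 WT libraries. miR-194-2 was the only one called of 4 members tested, miR-194-1 having no count to test. It passed the minimum of 6 counts through its Bbs4-/- libraries alone, so the count of called members adds nothing to its own test. Over all entries tested, 6.17% were called in this comparison in either direction and 3.9% were called higher in Bbs4-/-. Here "called" means a log2 change of 2 or more at an adjusted p below 0.1. The entry would not have been tested under edgeR's own filter on low counts.

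In Bbs6-/- against WT, 0 of 3 members tested were called, beside 4.03% of all entries tested in either direction and 2.68% called higher in Bbs6-/-, and none of the members had an unadjusted p under 0.05. DESeq2 also called 0 members. With 4 counts in the 6 libraries, miR-194-2 was too low to be tested here, and no fold is given because both lines were at or under the limit of 3 counts per library.

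The mutants were then compared with each other, which also tests whether their changes from the shared WT libraries differ. miR-194-2 was higher in Bbs4-/- than in Bbs6-/- by a log2 difference in level of 3.92 (SE 1.06, 95% interval 1.60 to 6.24, adjusted p = 0.0618, edgeR, 9 libraries in the fit). The pooled rate was 16.01-fold that of Bbs6-/-, with a counting interval of 5.95 to 60.6, and rests on 4 counts in Bbs6-/-. All 3 Bbs4-/- libraries lay above all 3 Bbs6-/- libraries, as they did for 14.2% of the entries tested. miR-194-2 was again 1 of 4 members tested that was called, beside 3.88% of all entries in either direction and 1.29% called higher in Bbs4-/-. This call rests on every Bbs4-/- library and on Bbs6-/- library 3: without Bbs4-/- library 1, 2 or 3, or without Bbs6-/- library 3, the adjusted p was 0.15, 0.19, 0.224 and 0.217 in turn, and the log2 difference stayed between 3.66 and 3.98. With all libraries thinned to 64118 counts the entry could be tested in 17 of 20 draws and was called in 7. The other members differed by -0.42 (SE 0.66) for miR-192, -0.34 (SE 0.63) for miR-194 and -0.16 (SE 1.62) for miR-215 on the log2 scale, with adjusted p of 0.804, 0.844 and 0.97 (edgeR).

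**Figure D2:**
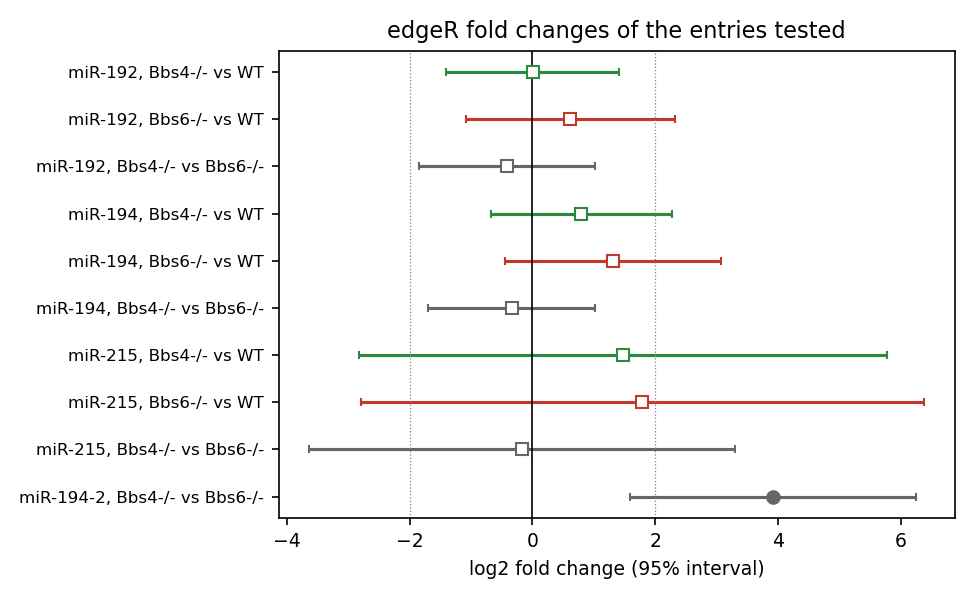
Fitted log2 differences in level with 95% intervals (horizontal axis) for each entry and comparison with a test (vertical axis). Filled circles were called and open squares were not, and dotted lines mark a log2 change of 2. miR-194-2 in Bbs4-/- against WT is left out because WT had no count, and the only filled point is miR-194-2 in Bbs4-/- against Bbs6-/-, at 3.92.

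Shares between entries of the same library do not depend on its depth or scaling, and they were used to compare strands and clusters. The share of miR-194-2 in the sum of miR-194-2 and miR-194 was 36.7%, 37.8% and 36.5% in the Bbs4-/- libraries, with 11 of 30, 17 of 45 and 35 of 96 counts. Bbs6-/- had 0%, 2.33% and 6.38%, with 0 of 41, 1 of 43 and 3 of 47 counts. WT libraries 3 and 4 had 0 of 10 and 0 of 16 counts, and library 1 had no count of either entry. The Bbs4-/- libraries lay above all others. They also lay close together, but their exact 95% intervals were wide, at 19.9% to 56.1%, 23.8% to 53.5% and 26.9% to 46.9%. The highest Bbs6-/- library was the one with the most counts of the pair.

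Pooled over each line, the share was 36.8% in Bbs4-/- (exact Clopper-Pearson 95% interval 29.6% to 44.5%, 171 counts) and 3.05% in Bbs6-/- (0.838% to 7.63%, 131 counts). In WT it was 0 of 26 counts, which allows a share of up to 11.5%, below the interval of Bbs4-/- and above that of Bbs6-/-. The mean share differed by 34.1 percentage points between Bbs4-/- and Bbs6-/- and by 37.0 points between Bbs4-/- and WT. The two-sided exact permutation test over libraries gave p = 0.1 for both, the smallest p that 3 libraries against 3, or 3 against 2, allow, and p = 0.3 after adjustment over the 12 share tests made. The design cannot go below 0.05 for shares.

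**Figure D3:**
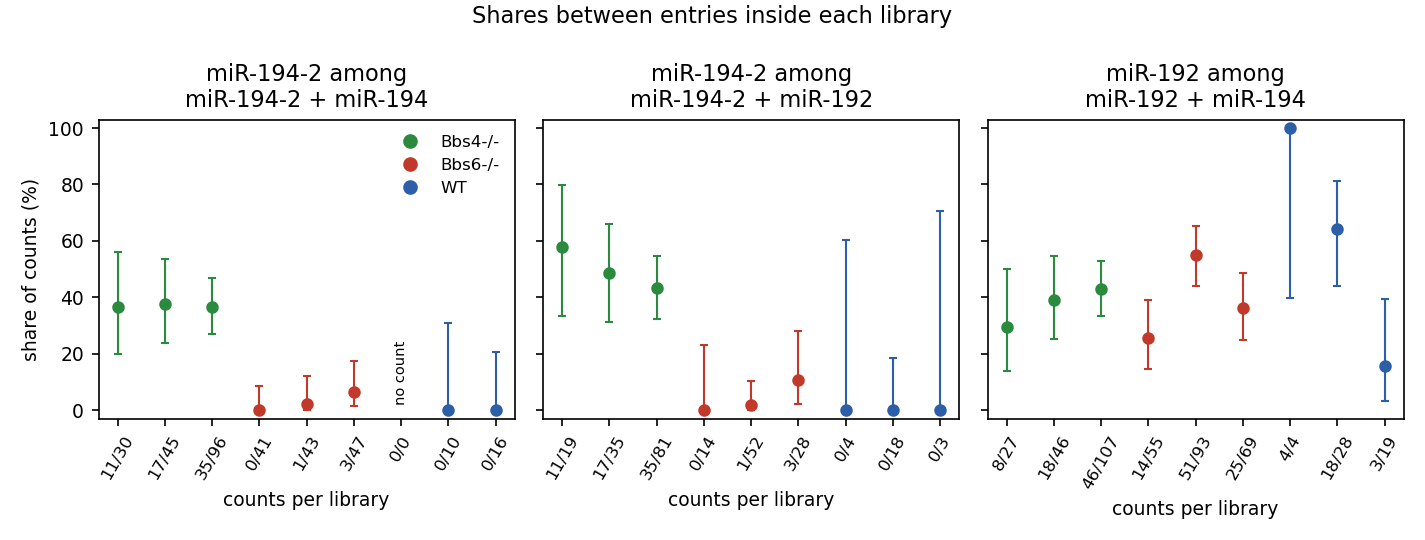
Share of counts (vertical axis, %) of miR-194-2 against miR-194, of miR-194-2 against miR-192 and of miR-192 against miR-194 in each library, coloured by line, with the counts printed under each point and exact 95% intervals as bars. The 3 Bbs4-/- libraries sit at 36.5% to 37.8% in the left panel and the other libraries with counts at 6.38% or below, while the lines overlap in the right panel.

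The same held against miR-192, the partner of miR-194-2 in the chromosome 19 cluster. This share uses the same miR-194-2 counts as the share above, so it is no separate support. miR-194-2 made up 57.9%, 48.6% and 43.2% of the counts of the pair with Bbs4-/- and 0%, 1.92% and 10.7% with Bbs6-/-. In WT it made up 0 of 25 counts, which allows up to 12.0%. The Bbs4-/- libraries lay above all others (difference in mean share from Bbs6-/- of 45.7 percentage points, exact permutation test, two-sided, p = 0.1, the smallest p possible, and 0.3 adjusted).

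The ratio of the unnumbered entries did not separate the lines. miR-192 made up 40.0% of the counts of miR-192 and miR-194 in Bbs4-/- (180 counts), 41.5% in Bbs6-/- (217 counts) and 49.0% in WT (51 counts), with exact 95% intervals of 32.8% to 47.6%, 34.8% to 48.3% and 34.8% to 63.4%. Single libraries ran from 15.8% in WT library 4 to 100% in WT library 1, which had only 4 counts. The difference in mean share between Bbs4-/- and Bbs6-/- was -1.59 percentage points (exact permutation test, two-sided, p = 1.0), and p was 0.5 and 0.6 for the mutants against WT. Between the family members of the 2 clusters, miR-192 made up 91.1%, 91.8% and 96.2% of the counts of miR-192 and miR-215 in Bbs4-/-, Bbs6-/- and WT.

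Counts that can be given to a cluster by name came almost all from chromosome 19. Its entries miR-192 and miR-194-2 had 254 counts and the chromosome 1 entries miR-215 and miR-194-1 had 16, so chromosome 19 took 94.1% of the 270 counts (exact 95% interval 90.6% to 96.6%). By line it took 95.1% in Bbs4-/-, 92.2% in Bbs6-/- and 96.2% in WT (135, 94 and 25 counts), and between 77.8% and 100% in single libraries. The 261 counts of miR-194 could not be given to a cluster, since its 5p strand is the same at both, so these shares leave out the most abundant member. The 3p strand of chromosome 1 was not seen although that of chromosome 19 was: miR-194-2 had 63 counts in Bbs4-/- and miR-194-1 had 0.

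The entries with a locus number were compared with those without across the table. Of 62 such entries, 29 had at least 1 count, and 44 had a partner without the number and at least 45 counts over both. In these 44, the numbered entry was mostly a trace: its median share of the pair's counts in Bbs4-/- was 0.0164%. By this share miR-194-2 ranked 3 in Bbs4-/-, after miR-365-2 with 72.9% and miR-29b-1 with 56.7%, and far above the next, miR-24-2 with 4.75%. In Bbs6-/- the shares were 4.62% for miR-365-2, 25.4% for miR-29b-1 and 3.05% for miR-194-2, and in WT 2.56%, 33.3% and 0%. miR-365-2 and miR-194-2 had the largest differences between the mutants among the 44 pairs, with miR-29b-1 close behind miR-194-2. In RefSeq the numbered entry of miR-365 matches a 5p strand and that of miR-194 a 3p strand.

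**Figure D4:**
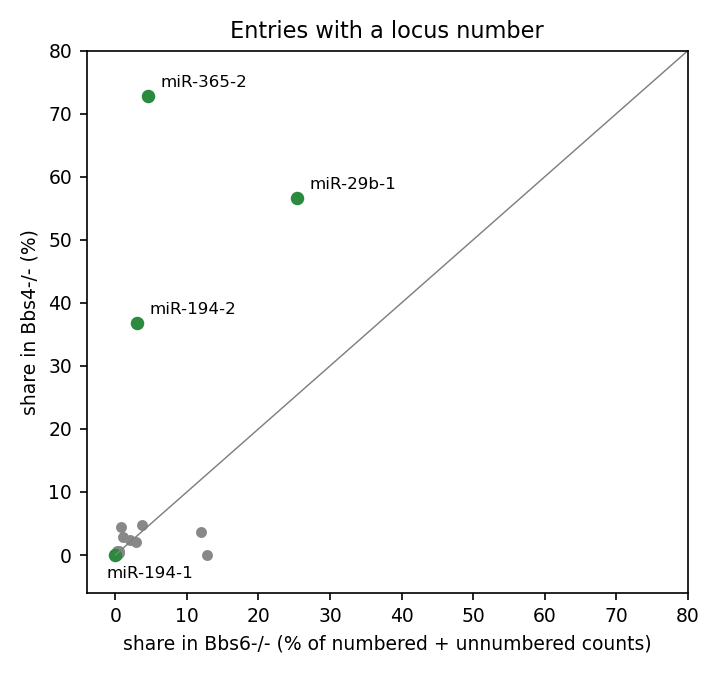
Share of the entry with a locus number in the counts of it and its unnumbered partner, pooled over each line, in Bbs6-/- (horizontal axis, %) and Bbs4-/- (vertical axis, %), for 44 pairs with at least 45 counts, with the line of equal shares drawn. miR-365-2, miR-29b-1 and miR-194-2 lie at 72.9%, 56.7% and 36.8% in Bbs4-/- against 4.62%, 25.4% and 3.05% in Bbs6-/-, and most pairs lie near 0 in both.

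In the tests of levels, 17 numbered entries were tested in Bbs4-/- against WT and 2 were called, both higher, namely miR-194-2 and miR-365-2 (log2 difference 5.78, SE 0.84, adjusted p = 0.000447, edgeR), beside 6.17% called of all entries. Both passed the minimum count through their Bbs4-/- libraries. The median log2 difference of the 17 was 0.18, or 0.00 with entries absent from a line set at their bound, against -0.02 over all entries. In Bbs6-/- against WT, 1 of 16 was called, miR-125b-1, which was lower by a log2 difference of -2.20 (SE 0.66, adjusted p = 0.0663, edgeR), beside 4.03% of all entries. Between the mutants 2 of 21 were called, again miR-194-2 and miR-365-2, both higher in Bbs4-/-, beside 3.88% of all entries. These counts include miR-194-2 itself.

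Called entries and medians are given for the 3 lists to which these miRNAs are related by tissue or regulation. Over all entries tested, 6.17% were called in Bbs4-/- against WT, 4.03% in Bbs6-/- against WT and 3.88% between the mutants. The 4, 3 and 4 members tested had median log2 differences of 1.13, 1.31 and -0.25 in turn. Of the renal epithelial list (the miR-200 and miR-30 families, miR-10a, miR-10b, miR-204 and miR-216a), 13 of 14 were tested, and miR-200c and miR-141, which like miR-192 target Zeb1 and Zeb2, were called higher in both mutants against WT and no other member in any of the 3 comparisons. Its median log2 difference was 0.31 in Bbs4-/- and 0.49 in Bbs6-/- against WT and 0.01 between the mutants, against medians of -0.02, -0.01 and 0.04 over all entries. Of the p53-responsive list (miR-34a, miR-34b, miR-34c, miR-143, miR-145a, miR-107, miR-15a and miR-16), 7 were tested, and miR-34b and miR-34c, targets of p53, were called higher in both mutants. Between the mutants miR-34b and miR-34c were lower and miR-143 higher in Bbs4-/-. The median of this list was 1.13 in Bbs4-/- against WT, 0.67 with absent entries at their bound, 1.47 in Bbs6-/- and -0.22 between the mutants. Within this list miR-34b and miR-34c were thus highest in Bbs6-/-, while miR-143, like miR-194-2, was higher in Bbs4-/- than in Bbs6-/-. A part of p53 in any of these levels was not tested.

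Of the blood and liver list (miR-122, miR-451a, miR-486a, miR-486b, miR-144, miR-223, miR-142a and miR-150), 6 were tested in Bbs4-/- against WT, and miR-122, a hepatocyte miRNA, was called lower in Bbs4-/-. Over all entries tested, 6.17% were called in this comparison. None of 5 in the list was called by edgeR in Bbs6-/- against WT or between the mutants, beside 4.03% and 3.88% of all entries. Since miR-192 and miR-194 are also made in liver, the hepatocyte marker is given beside them: miR-122 was at 0 to 8.96 CPM in Bbs4-/-, 0 to 75.2 CPM in Bbs6-/- and 26.7 to 85.1 CPM in WT. Its Bbs4-/- and WT ranges did not overlap, with WT the higher, but it had at most 2 counts in a Bbs4-/- library. The share of all entries with WT above Bbs4-/- in this way was not counted. The red cell markers miR-451a and miR-144 summed to 2.33 to 44.3, 0 to 43.9 and 45.3 to 85.1 CPM. The part of such RNA in the levels of miR-192 and miR-194 was not tested.

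The 3 most abundant members were compared in their pattern across the 9 libraries. On the scale of log2 CPM, Pearson's r was 0.27 between miR-192 and miR-194, 0.07 between miR-192 and miR-194-2 and 0.29 between miR-194 and miR-194-2. These are descriptions over libraries that share their lines and depths. Among 206 entries with at least 45 counts, the pattern most like that of miR-194-2 was that of miR-365-2 (r = 0.95), followed by miR-218, miR-504, miR-30a and miR-128 (r from 0.88 to 0.86). miR-365-2 was at a mean of 205 CPM in Bbs4-/-, 4.11 CPM in Bbs6-/- and 2.15 CPM in WT. Nearest to miR-194 were miR-151, miR-181b, miR-107, miR-140 and miR-200a (r from 0.90 to 0.83), and nearest to miR-192 were miR-582, miR-30b, miR-3084, miR-152 and let-7c-2 (r from 0.81 to 0.66).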

How the data were processed

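Small RNA of smEV pellets from 3 KM lines was sequenced in 9 libraries. The authors trimmed adapters (cutadapt 1.9 in the submitters' processing notes), removed PCR duplicates by molecular identifiers and reads shorter than 15 nucleotides, and counted miRNAs with miRDeep2. They kept the largest count where a miRNA had several entries, which can drop reads of a second arm or locus. The authors deposited raw counts, without normalization; the genome build and miRBase release for this step are not given in the sources used here. All entries name a miRNA. Samples were grouped by genotype in the labels. Columns of Bbs6-/- and WT are numbered differently from the labels and were mapped to the genotype only.

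Counts were analysed with edgeR 4.0.16 in R 4.3.3 (TMM, quasi-likelihood test, Benjamini-Hochberg adjustment), each mutant against WT on their 6 libraries (entries with at least 6 counts in all) and the mutants on all 9 (at least 9). DESeq2 1.42.0, other scalings and filters, thinning, summed entries, the column number as a block and leaving out each library were alternatives. Shares were tested by exact permutation in scipy 1.17.1. The standard error is the log2 change over the square root of F. Correlations used log2 CPM with a prior count of 2. Figures were drawn with matplotlib 3.10.9.

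The 5 members are all named. Entries of the 4 lists are named where called, as are the 5 nearest in pattern to miR-192, miR-194 and miR-194-2, and pairs with a locus number by their share, which were chosen after their values were seen. The members and lists were chosen with earlier results of these data known. On simulated counts, with 200 of 1164 entries changed by a log2 fold of 3, the test recovered 51 of the 55 changed entries tested in Bbs4-/- against WT, 43 of 51 in Bbs6-/- against WT and 49 of 61 between the mutants, and called 1, 1 and 0 unchanged ones. The simulation gave every entry the same dispersion between libraries and a change above the threshold of 2, so these rates need not hold for the real libraries. Sequences and positions are RefSeq's for GRCm38.p6.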

Additional observations from a re-analysis of the deposited data

Results flagged for a closer look

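The level of miR-194-2 was higher in Bbs4-/- than in Bbs6-/- by 3.92 on the log2 scale (adjusted p = 0.0618, edgeR, fitted on all 9 libraries). It had 11 to 35 counts in each Bbs4-/- library and 0 to 3 in each Bbs6-/- library. This call was lost in 6 of 19 alternatives. Its counts in Bbs6-/- and WT were too low to test a change between those lines. With 3 libraries a line, no single library was tested as lying apart from the others.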

How the results depend on the processing

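Each 2 lines share 2 of the column numbers. Same-numbered libraries deviated from their line's means with r from -0.13 to 0.37 over 6 pairs and 309 entries. Differently numbered libraries gave r from -0.287 to 0.147, below the 0.368, 0.205 and 0.154 of the highest same-numbered pairs. Nothing in the labels ties the numbers together, so they were read as names only, but an effect shared by number cannot be left out. With the number as a replicate block (9 libraries in 1 fit), miR-194-2 stayed called in Bbs4-/- against WT (adjusted p = 0.00908) and against Bbs6-/- (log2 difference 4.94, adjusted p = 0.0702), no other member was called, 20 miRNAs instead of 12 were called in Bbs6-/- against WT, and miR-194 between the mutants went to 0.099. The call of miR-194-2 in Bbs4-/- against WT held in the 15 alternatives that tested it, with adjusted p from 0.000375 to 0.0469, the last being the median of the thinned draws, of which 16 of 20 called it; under filterByExpr it was not tested and 0 members were called. Between the mutants its log2 difference ran from 3.44 to 4.94 over 19 alternatives and its adjusted p from 0.0185 (DESeq2) to 0.224. There 0 members were called at an adjusted p under 0.05 and 0 in the median thinned draw, and leaving out 1 library gave 0 to 1 members and 7 to 17 miRNAs called in all. In Bbs6-/- against WT 0 members were called in all 16 alternatives. The uncalled differences of miR-192 changed sign: against WT, Bbs4-/- went to -0.12 with total counts and from -0.49 to 1.25 over all alternatives, with -0.01, -0.26, -0.01 and -0.49 without Bbs4-/- library 2 or 3 and WT library 1 or 4, and Bbs6-/- went from -0.070 to 1.70 when 1 library was left out. Between the mutants, miR-194 went to 0.25 with the miR-194 entries summed, and miR-215 from -1.41 to 0.41 when 1 library was left out, above 0 without Bbs4-/- library 2 or Bbs6-/- library 2 (0.41 and 0.40). Without WT library 3, the WT library with the only miR-215 count, miR-215 against WT went to 4.14 in Bbs4-/- and 4.32 in Bbs6-/-, uncalled. The differences in share kept their sign in all alternatives; that of miR-194-2 against miR-194 between Bbs4-/- and WT ran from 34.7 to 37.2 percentage points, 34.7 when thinned. Depth limits WT most, where a count of 0 in library 1 allows up to 36.5 CPM.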
